A study of Mus musculus with 2 samples.

Results

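The 45 genes described here encode the enzymes that build, attach and remodel N-linked glycans, the sugar trees that most secreted proteins receive in the endoplasmic reticulum (ER). They were chosen by name as known components of the pathway, and a gene was measured where a probe set named that gene alone. Of the 45 genes, 42 had such a probe set, out of 30142 genes measured in all. Dpm1, Alg10b and Mgat4b had none and are given no value. RNA came from the liver of untreated PiZ mice of the C57BL/6 strain, killed at 3 months of age. All of these mice, in both groups, carry the human gene and promoter of ATZ, the Z mutant of alpha-1-antitrypsin. The mutant protein collects in hepatocytes as globules. Areas with and without globules were recognised on frozen sections by a Cresyl Violet stain and captured by laser, so they were chosen by morphology. The globule-containing group is 1 array and the globule-free group is 1 array, each made from RNA pooled from 2 mice, and no mouse without the transgene was included. The labels do not say if both pools came from the same animals.

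N-glycosylation begins on the membrane of the ER, where sugars are added stepwise to a lipid carrier called dolichol phosphate. The finished oligosaccharide is moved as a block to asparagine residues of new proteins by the oligosaccharyl transferase. Glucosidases of the ER then trim it, and enzymes of the Golgi add branches, galactose, fucose and sialic acid. Hepatocytes export most plasma glycoproteins, alpha-1-antitrypsin among them, and retained ATZ carries N-glycans of the ER type.

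Values are log2 signals, and a difference is the globule-containing value minus the globule-free value, so that 1 is 2-fold. With 1 array per group there is no replicate, no test and no error of a gene, and every difference describes these 2 arrays. A gene counted as above the floor if its 2 signals averaged 4.76 or more, 4.76 being the middle value of the single-gene probe sets. A background level was set at the 95th percentile of receptor genes of the nose (olfactory and vomeronasal), at 4.85 on the globule-containing and 5.04 on the globule-free array. In such bulk samples, fewer cells of a type and less RNA per cell cannot be told apart. Hepatocyte markers were bright on both arrays, with Alb at 19.90 (globule-containing) and 19.80 (globule-free), so close to the highest value on each that it gives no fold. The same holds for Ttr and Trf. The other 6 of 9 hepatocyte markers measured were all below 0, from -0.09 (Asgr1) to -2.37 (Cps1). Fgb, a fibrinogen chain, was lower by 1.83-fold, Apoa1, an apolipoprotein, by 1.74-fold, and Cps1, a urea cycle enzyme of periportal hepatocytes, by 5.17-fold. The part of this shift in the values below was not tested.

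Most N-glycosylation genes differed by less than 2-fold between the arrays. Of 39 members above the floor, 35 lay within 2-fold, beside 88.3% of all genes above the floor. Dpagt1 was the 1 member past 2-fold on the higher side in globule-containing areas, and Alg14, St6gal1 and St3gal4 were the 3 past it on the lower side. Among all 15023 genes above the floor, 6.47% lay past 2-fold on the higher and 5.26% on the lower side, so these counts are close to the background. At a threshold of 1.5-fold, 7 members were higher and 6 lower, against 16% and 11.9% of all genes. The members' median difference was 0.15, against 0.05 over all genes, and 25 of the 39 were above 0. Among all genes, 54.5% were above 0. Pmm1, Mgat4a and Fut8 lay below the floor and at background on both arrays. With those 3 included, the median over 42 genes was again 0.15.

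**Figure D1:**
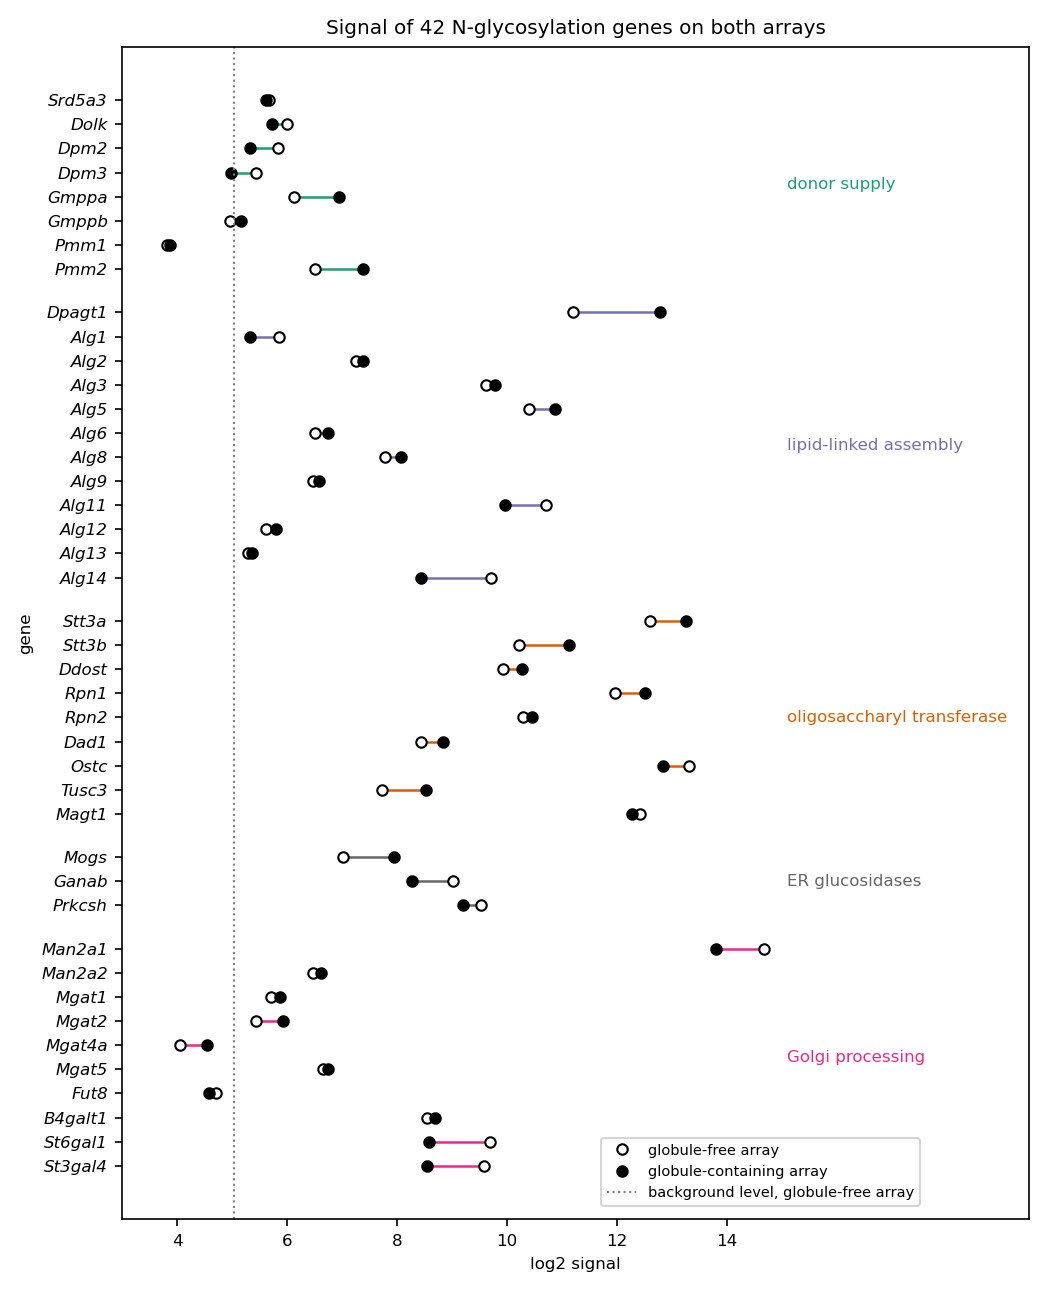
Log2 signal (horizontal axis) of the 42 measured N-glycosylation genes (rows, grouped by step) on the globule-containing array (filled) and the globule-free array (open). Dpagt1 has the widest gap to the right, from 11.20 to 12.78, and Alg14 the widest to the left, from 9.71 to 8.44.

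**Figure D2:**
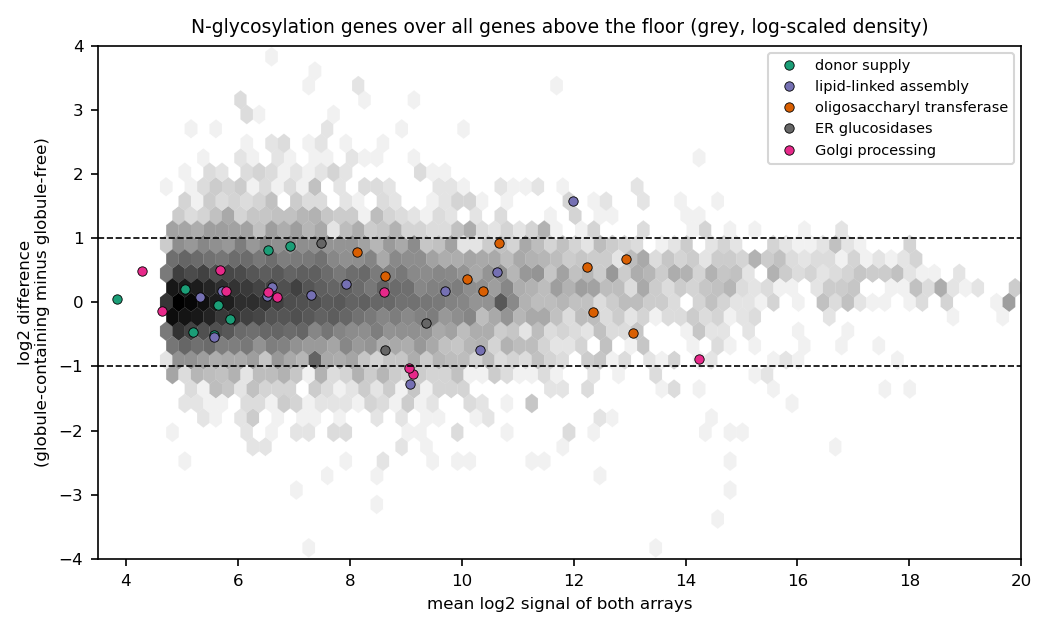
Log2 difference (vertical axis; genes beyond its range are not drawn) against the mean log2 signal of both arrays for all genes above the floor (grey, darker where more genes lie) and for the 42 N-glycosylation genes (coloured by step). Dashed lines mark 2-fold; 4 of the coloured points lie outside them.

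Those of the 45 genes that supply activated sugars and dolichol differed in both directions, all that were measured by less than 2-fold. Mannose enters the pathway as GDP-mannose. Of the members of its synthesis, Pmm2, Gmppa and Gmppb were above 0, and Pmm1 lay at background. Pmm2, the phosphomannomutase that is mutated in the most common human congenital disorder of glycosylation, had 7.38 in areas with globules against 6.50 in areas without them, 1.84-fold higher. Gmppa, a regulatory subunit related to GDP-mannose pyrophosphorylase, had 6.95 against 6.13, 1.76-fold higher. Its catalytic relative Gmppb had 5.16 against a globule-free signal of 4.96 at background, which allows only a bound of at least 1.09-fold. Pmm1, the second phosphomannomutase gene, lay at background on both arrays, at 3.86 and 3.81. Mpi, the isomerase that opens the route and lies outside the 45 genes, had 5.66 against 5.91, a difference of -0.25.

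Dpm2, Dpm3, Dolk and Srd5a3, the measured members that act on dolichol or help to make its mannose form, had differences from -0.51 to -0.04. Dpm1, also among the 45 genes, has no value. All signals of the measured ones were dim, from 4.97 to 5.99, with background levels of 4.85 (globule-containing) and 5.04 (globule-free). The genes that build the dolichol chain itself, outside the 45, were higher and are given with the other pathway genes. Dpm2 and Dpm3 anchor and stabilise the synthase that makes dolichol phosphate mannose. Dpm2 had 5.32 against 5.84, a difference of -0.51, and Dpm3 had 4.97 against 5.43, a difference of -0.46. Dolk, the dolichol kinase, had 5.73 against 5.99, and Srd5a3, the polyprenol reductase that completes dolichol, 5.62 against 5.66. The median of the 7 supply genes above the floor was -0.04, with 3 above and 4 below 0. With probe sets that name several genes included, 8 supply genes were above the floor, 4 above and 4 below 0.

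Assembly of the lipid-linked oligosaccharide held both the largest higher and the largest lower difference of all members. Dpagt1 (probe set TC0900000504.mm.1) transfers the first sugar, GlcNAc phosphate, to dolichol phosphate and is the target of the inhibitor tunicamycin. Its signal was 12.78 with and 11.20 without globules, 2.99-fold higher, and 2.65% of all genes above the floor lay at least as far in that direction. Alg14 (TC0300001229.mm.1) anchors the enzyme of the next step, the addition of the second GlcNAc. It had 8.44 against 9.71, 2.41-fold lower, and 3.46% of all genes lay at least as far down. Alg13, the catalytic partner of Alg14, had 5.37 against 5.29, so the subunits of this enzyme differed by 0.08 and -1.27. The signals of Alg13 lay close to the background levels of 4.85 (globule-containing) and 5.04 (globule-free). The opposite directions of Dpagt1 and Alg14 thus fell on neighbouring steps.

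The remaining steps on the cytosolic face add mannose. Alg1, which adds the first mannose, had 5.32 against 5.85, a difference of -0.53. Alg2, the mannosyltransferase of the following steps, had 7.37 against 7.26. Alg11, which adds the last mannoses before the oligosaccharide is flipped, had 9.97 against 10.70, 1.67-fold lower. The 6 cytosolic genes from Dpagt1 to Alg11 therefore ran from -1.27 to 1.58, with 3 above and 3 below 0.

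The enzymes inside the ER lumen stayed close together. The mannosyltransferases Alg3, Alg9 and Alg12 had 9.79 against 9.61, 6.58 against 6.48, and 5.80 against 5.62. Alg6 and Alg8, which add glucose, had 6.73 against 6.50 and 8.07 against 7.78. All 5 differences lay between 0.10 and 0.29, above 0 but far inside 2-fold. Alg5, which makes the dolichol-bound glucose that these enzymes use, had 10.87 against 10.40, a difference of 0.47. The split of assembly into cytosolic and lumenal steps follows the known topology, but it was made after the values were seen.

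Promoters of the members were searched for the elements through which ER stress factors act, since the areas were chosen for globules of a protein retained in the ER. RefSeq promoter windows of build GRCm38.p6 were on hand for 37 of the 45 members, with none for Dpagt1, and only the 250 bases before each start site were searched, on both strands. The ER stress response element (ERSE), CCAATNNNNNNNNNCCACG, was present in 37 of 32851 windows (0.113%) and in 1 member, Alg12. It was also present upstream of Canx and Calr, the lectin chaperones that bind freshly trimmed N-glycans. The 3 elements are shown with 20 bases on each side and their conserved ends in capitals, which mark CCAAT and CCACG or, where the element lies on the other strand, their complements.
Alg12 (chr15:88819500-88819558, minus strand): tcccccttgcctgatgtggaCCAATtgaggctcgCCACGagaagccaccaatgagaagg
Canx (chr11:50325780-50325838, minus strand): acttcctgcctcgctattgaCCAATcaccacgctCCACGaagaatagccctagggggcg
Calr (chr8:84847055-84847113, minus strand): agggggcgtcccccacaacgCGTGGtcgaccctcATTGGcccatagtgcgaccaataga
The elements end 201, 126 and 143 bases before the start sites of Alg12, Canx and Calr. Alg12 differed by 0.18, Canx by 0.48 and Calr by 0.67. After loess scaling these differences were 0.15, 0.18 and 0.37. ERSE-II (ATTGGNCCACG), the core TGACGTGG bound by XBP1 and ATF6, and the ATF4 element TGATGNAAT were found in 0.0304%, 0.563% and 0.816% of all windows and in none of the 37 members. A match is a run of letters, not a measured site, and a missing match says only that the letters are not in that window.

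Subunits of the oligosaccharyl transferase, the complex that moves the oligosaccharide onto proteins, were mostly higher by less than 2-fold. Of 9 members, 7 were above 0, none reached 2-fold, and the median difference was 0.41. Over the 3663 genes whose mean signal lay in the same range, from 8.13 to 13.07, the median was 0.08 and 55.3% were above 0. Both catalytic subunits were higher. Stt3a, whose complex works on chains as they enter the ER, had 13.27 in areas with and 12.59 in areas without globules, 1.59-fold higher. Stt3b, whose complex modifies sites that were skipped, had 11.13 against 10.22, 1.89-fold higher.

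Among the 45 genes, the subunits shared by both complexes had smaller differences than Stt3a and Stt3b. Rpn1, ribophorin I, which helps to present substrates, had 12.51 against 11.96, a difference of 0.55. Dad1, named as a defender against cell death, had 8.84 against 8.43, and Ddost, a structural subunit, 10.28 against 9.92. Rpn2, ribophorin II, had 10.46 against 10.29, a difference of 0.18. All 4 of these shared subunits were above 0. Ost4, a small shared subunit outside the 45 genes, differed by 0.79, more than Stt3a.

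Subunits that belong to only one kind of complex went apart. Tusc3 and Magt1 are alternative oxidoreductase subunits of the Stt3b complex. Tusc3 had 8.52 against 7.73, 1.72-fold higher, whereas Magt1 had 12.27 against 12.42, a difference of -0.15. Ostc, a subunit of the Stt3a complex, had 12.83 against 13.30, 1.39-fold lower, although Stt3a itself was higher. Of further small subunits outside the 45 genes, Tmem258 differed by 0.24 and Krtcap2 by 0.15. With these and Ost4, 10 of 12 subunits were above 0, but Krtcap2 was at -0.05 after loess scaling.

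The upstream regions of Stt3a and Stt3b are shown because both catalytic genes had higher signals and each window holds a CCAAT box and a CCACG, the ends of the ERSE, though not in the spacing of that element. Capitals mark CCAAT and CCACG or their complements.
Stt3a (chr9:36767623-36767872, minus strand): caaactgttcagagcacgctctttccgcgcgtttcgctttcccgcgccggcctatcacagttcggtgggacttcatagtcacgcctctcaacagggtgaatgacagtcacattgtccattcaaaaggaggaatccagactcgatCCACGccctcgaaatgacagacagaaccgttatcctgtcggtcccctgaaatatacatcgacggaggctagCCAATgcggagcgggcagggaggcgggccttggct
Stt3b (chr9:115310469-115310718, minus strand): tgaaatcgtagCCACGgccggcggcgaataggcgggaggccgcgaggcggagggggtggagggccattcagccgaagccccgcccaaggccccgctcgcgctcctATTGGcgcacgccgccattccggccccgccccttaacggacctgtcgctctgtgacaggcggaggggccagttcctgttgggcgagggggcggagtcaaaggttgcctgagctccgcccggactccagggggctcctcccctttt
Both kinds of letters occurred together in 5 of 37 members (Alg12, Stt3a, Stt3b, Rpn1 and St6gal1) and in 9.26% of all windows. The 37 members have 46 windows, so the count of members and the share of windows are in unlike units. Of the 5 members, St6gal1 was lower in globule-containing areas and the other 4 were above 0. Among all genes above the floor, 54.5% were above 0. Both kinds of letters also occurred in 13 of 41 other pathway genes with a window. Among these, Dhdds, Nus1, Gfpt1, Uap1, Ugp2, Canx and Calr were above 0, and Uggt2, Manea and St3gal3 below. Man1c1 and B4galt4 lay at background on both arrays, and B3gnt2 had no value. The extremes were 1.09 (Dhdds) and -1.34 (St3gal3). A link between these letters and the differences was not tested.

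**Figure D3:**
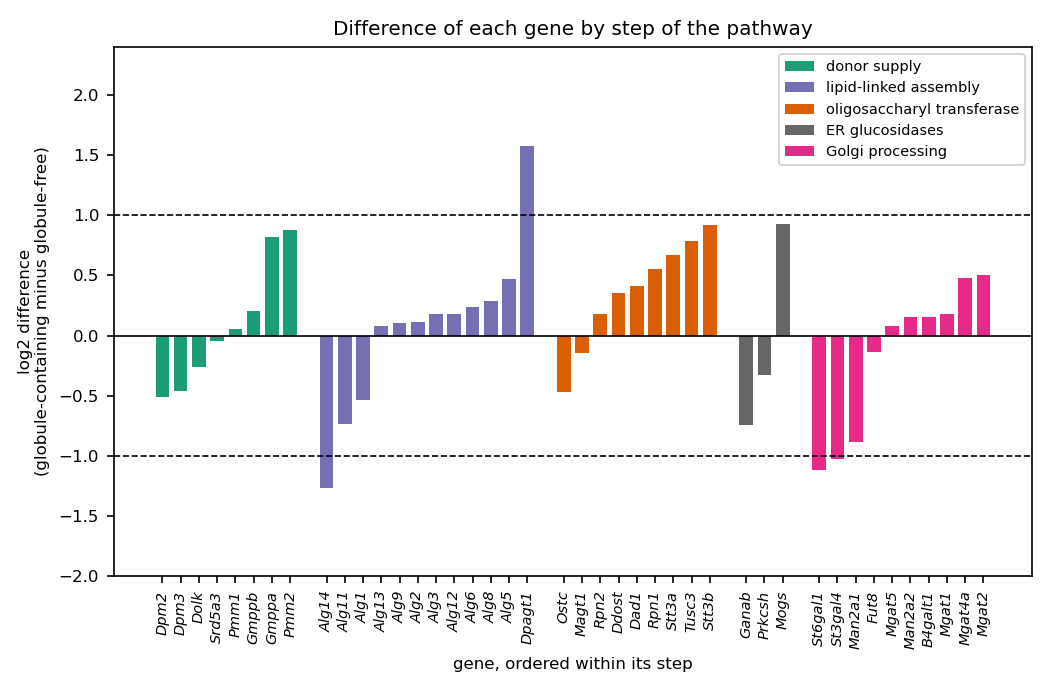
Log2 difference, globule-containing minus globule-free (bars), of the 42 measured genes, ordered within each step of the pathway. Dashed lines mark 2-fold; bars of the oligosaccharyl transferase are mostly above 0, from -0.47 (Ostc) to 0.92 (Stt3b), and Golgi processing ends at -1.12 (St6gal1).

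The glucosidases that trim the attached glycan did not move together. Mogs, glucosidase I, which removes the outermost glucose, had 7.95 against 7.01, 1.91-fold higher. Ganab, the catalytic subunit of glucosidase II, had 8.27 against 9.01, 1.67-fold lower, and Prkcsh, its beta subunit, 9.19 against 9.52, 1.26-fold lower. Glucosidase II makes the form of the glycan that calnexin and calreticulin recognise, and its subunits thus lay on the other side of 0 from both lectins.

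Among Golgi enzymes, both sialyltransferases of the 45 genes were past 2-fold on the lower side, and no other member reached 2-fold on the deposited scale. St6gal1 (TC1600000335.mm.1) caps most N-glycans of liver plasma proteins with sialic acid. Its signal was 8.58 with and 9.70 without globules, 2.17-fold lower. St3gal4 (TC0900002003.mm.1), which caps galactose in another linkage, had 8.55 against 9.58, 2.04-fold lower. These differences of -1.12 and -1.03 lay just past the 2-fold line, and 4.41% and 4.96% of all genes above the floor lay at least as far down. St3gal3, an enzyme of the same kind outside the 45 genes, had 8.34 against 9.69, 2.54-fold lower. St3gal6 and St6gal2 lay at background on both arrays. Of the 5 sialyltransferases listed, the 3 with a signal above background were therefore all lower by at least 2-fold.

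Man2a1, the Golgi alpha-mannosidase II that prepares glycans for branching, was also lower, at 13.80 against 14.68, 1.85-fold. Its difference of -0.89 reached -1.15 after loess scaling, where it too passed 2-fold. Man2a2, the related enzyme, had 6.62 against 6.47, a difference of 0.15. B4galt1, which adds the galactose that sialic acid caps, had 8.69 against 8.54, and so differed little where the capping enzymes were lower.

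The GlcNAc transferases that start branches stayed within 2-fold. Mgat1, which opens the path to complex glycans, had 5.87 against 5.69, and Mgat2 had 5.93 against 5.42. Mgat5, which starts a further branch, had 2 probe sets that disagreed. The brighter gave 7.97 against 7.09 and the dimmer 5.50 against 6.22, so that their mean difference of 0.08 describes neither. Mgat4a (4.53 and 4.05) and Fut8 (4.58 and 4.71), which adds core fucose, lay at background on both arrays. Over the 8 Golgi members above the floor the median was 0.12, with 5 above and 3 below 0. The 4 brightest of them alone (Man2a1, B4galt1, St6gal1 and St3gal4) had a median of -0.96.

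Of 51 other genes of the pathway, 49 were measured and 38 lay above the floor. Among these 38, 5 passed 2-fold on the higher and 1 (St3gal3) on the lower side, and their median was 0.15, against 6.47% and 5.26% of all genes and an overall median of 0.05. Of the 21 genes above the floor that supply dolichol and sugar donors, 4 passed 2-fold as higher and none as lower. Their median was 0.14, and 12 of the 21 (57.1%) were above 0, against 54.5% of all genes. The 4 past 2-fold follow. Dhdds and Nus1 are the subunits of the cis-prenyltransferase that builds the dolichol chain. Dhdds had 8.41 against 7.32, 2.13-fold higher, and Nus1 11.97 against 10.91, 2.09-fold higher. Gfpt1, the rate-limiting enzyme of UDP-GlcNAc synthesis, had 8.41 against 7.35, 2.09-fold higher. Ugp2, which makes UDP-glucose, had 14.52 against 13.45, 2.10-fold higher. After loess or quantile scaling, Nus1, Gfpt1 and Ugp2 fell short of 2-fold, with lowest values of 0.89, 0.98 and 0.81.

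The steps after Gfpt1 lay in the same direction. Gnpnat1 differed by 0.41, Pgm3 by 0.43 and Uap1, which completes the UDP-GlcNAc that Dpagt1 consumes, by 0.52. All 4 genes of this route were above 0; the route was set apart after its values were seen. B4galt6, a galactosyltransferase best known for glycolipids, had 6.09 against a globule-free signal of 4.76 at background, at least 2.07-fold higher.

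Sialic acid supply went both ways, unlike the sialyltransferases. Nans and Cmas, which make sialic acid and activate it, differed by 0.51 and 0.90. Gne, the enzyme that starts the route, differed by -0.34, Nanp, the phosphatase of the route, by -0.76 and Slc35a1, the transporter that carries activated sialic acid into the Golgi, by -0.58. The 2 probe sets of Nanp gave -0.35 and -1.17. In fucose supply, Tsta3 (Gfus in current naming), which completes GDP-fucose, had 6.20 against 7.20 and lay just inside the 2-fold line. It lay just past it after median centring, quantile and loess scaling, at -1.05, -1.08 and -1.06. In the lectin cycle Pdia3, the oxidoreductase that works with both lectins, differed by 0.65 (0.36 after loess scaling), close to Calr and Canx. Uggt1, the sensor that returns glucose to misfolded glycoproteins, differed by 0.05 (-0.05 after loess and also below 0 after quantile scaling). Its relative Uggt2 was lower, at 4.92 against 5.54 as the mean of 2 probe sets. The brighter gave 5.52 against 6.63, a difference of -1.11. The dimmer, at 4.31 and 4.46 (-0.15), lay below the background level on both arrays.

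**Figure D4:**
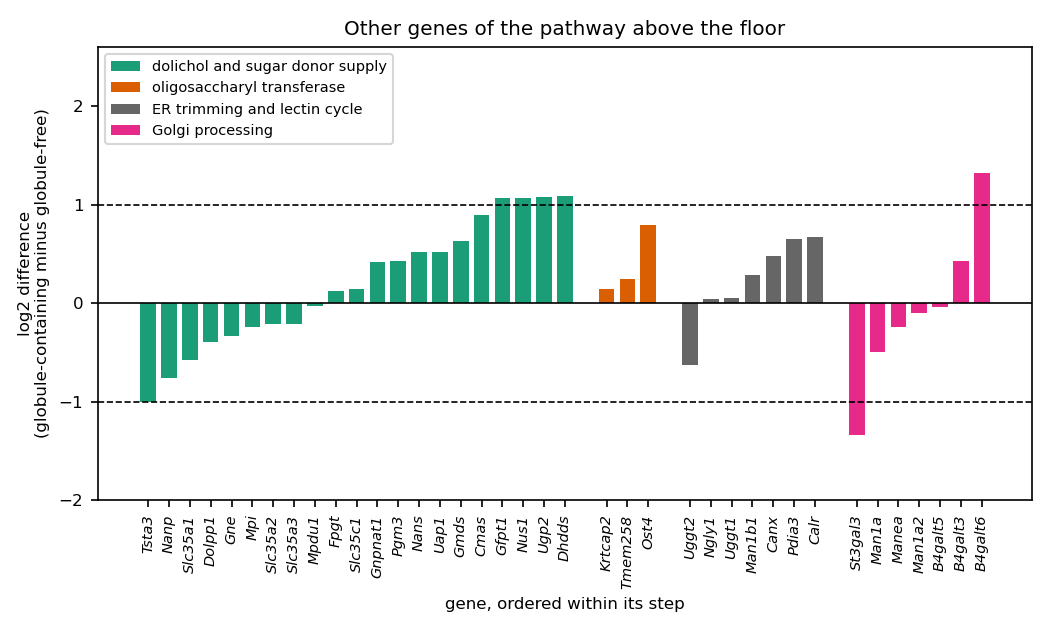
Log2 difference, globule-containing minus globule-free (bars), of the 38 other N-glycosylation genes above the floor, ordered within each step. Dashed lines mark 2-fold; the bars run from -1.34 (St3gal3) to 1.32 (B4galt6), and 4 supply genes stand just above the upper line.

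Other cell types differed between the arrays, beside every result above. Among all genes above the floor, 6.47% passed 2-fold as higher and 5.26% as lower. Of 12 stellate cell and fibroblast markers, 10 passed 2-fold on the higher side, and the median signal of the 12 was 7.71 with and 5.76 without globules. Des, 1 of the 12, lay at background on both arrays. Of 12 macrophage markers, 5 passed 2-fold as higher and 4 as lower. Their median signal was 8.25 with and 8.81 without globules, and their median difference was 0.08. The 5 higher ones ran from 2.04-fold (Csf1r) to 277-fold (Gpnmb), and the 4 lower ones from 2.92-fold (Marco) to 8.28-fold (Clec4f). Of 8 endothelial markers 1 passed 2-fold as higher, and of 6 neutrophil markers 2 did. The neutrophil markers Mpo and Elane lay at background on both arrays. Of 5 cholangiocyte markers measured, none reached 2-fold on the deposited values, with 4 above 0 and 1 below. Krt7 and Cftr among them lay at background on both arrays. Epcam had 5.77 against a globule-free signal of 4.81 at background, at least 1.67-fold higher. The lymphocyte markers Cd3e, Cd3d, Cd79a and Ms4a1 lay at background on both arrays. Nkg7, the remaining lymphocyte marker measured, had 5.16 against a globule-free signal of 4.77 at background, at least 1.09-fold higher. Of 5 plasma cell markers measured, Jchain and Mzb1 lay at background on both arrays, and 1 passed 2-fold. This was Derl3, an ER-associated degradation gene, at 10.56 against 8.21, 5.10-fold higher. Xbp1 differed by 0.47 and Sdc1 by -0.61. The part of these cells in the N-glycosylation values was not tested.

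Direction also rests on how the arrays were scaled. Over the deposited scale, median centring, quantile and loess scaling, each of the 42 genes kept its sign, and Dpagt1, Alg14, St6gal1 and St3gal4 stayed past 2-fold. The 4 hybridization controls, which are added in equal amounts by design, were lower on the globule-containing array by 0.33 to 0.77. Scaling on their mean, a setting chosen after seeing the data, shifts every gene up by 0.57 and the median of all genes to 0.62. On that scale 33 of 39 members were above 0, 10 passed 2-fold as higher and none as lower. Of all genes, 87.8% were above 0, 22.7% passed 2-fold as higher and 2.32% as lower, so the counts of members are again close to the background. Differences above are relative to the deposited scale, and the order of the genes is the same on both.

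**Figure D5:**
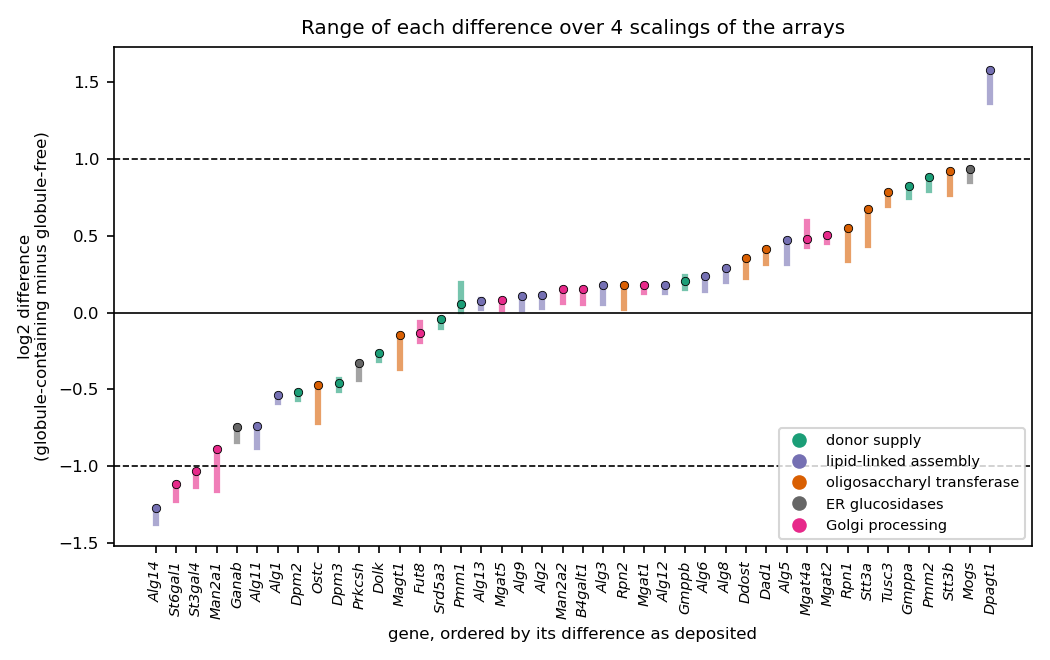
Log2 difference, globule-containing minus globule-free, of the 42 genes on the deposited scale (points) and its range over the deposited scale, median centring, quantile and loess scaling (bars). No bar crosses 0, and Dpagt1 spans 1.37 to 1.58.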

How the data were processed

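Per the labels' protocols, 50 ng of RNA per pool, isolated with a PicoPure kit, went into the NuGEN Ovation WTA labelling. The authors deposited 2 arrays of 72688 log2 values, made with the Transcriptome Analysis Console per the submitters' processing notes. How background was corrected, how arrays were normalized and which build was used is not given in the sources here. The log2 scale was read from the values, which run from 1.85 to 19.93.

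Probe sets were named from the platform annotation, counting a symbol repeated within an entry once: 30604 named 1 gene, 2146 several and 39938 none. Entrez IDs matched the RefSeq gene table (GRCm38.p6) for 22818, with 827 symbols updated, and a gene with several probe sets took their mean. The floor is the median over probe sets naming 1 gene, and background uses 1721 receptor probe sets. Counts past 2-fold use deposited values. For a gene at background on 1 array the dim value was raised to background and the fold given as "at least".

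The members, the gene lists and the naming rule were chosen with earlier results of these data known. All members are named, as are the other pathway genes at least 2-fold apart; further genes of that list and the markers were chosen after their values were seen. The number of arrays limits the precision. The steps were tested on simulated data. Alternatives were the floor, scaling, probe set choice, dim values, ceiling and threshold. Python 3.11.15, numpy 2.4.6, pandas 2.3.3 and statsmodels 0.14.6 were used.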

Additional observations from a re-analysis of the deposited data

How the results depend on the processing

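A value was taken as moved where it changed by more than 0.17, the median gap between the differences of 2 probe sets of 1 gene (177 genes). The medians of all members, dolichol-linked synthesis, the oligosaccharyl transferase and other pathway genes moved under none of the planned settings by that measure. The cut of 0.17 is larger than the medians of members, dolichol-linked synthesis and other pathway genes, so it could not show their fall to 0. After loess scaling these were 0.06, 0.06 and 0.09, against 0.15, 0.11 and 0.15 as deposited. The oligosaccharyl transferase median was 0.32 after loess scaling, against 0.41. The Golgi median was -0.96 with the floor at the 75th percentile, which left 4 members. At 1.5-fold, 7 members were higher and 6 lower. After loess or quantile scaling 4 members were at least 2-fold lower, with Man2a1 added. Scaled on the hybridization controls, chosen after seeing the data, the medians were 0.73 (members), 0.69 (dolichol-linked synthesis), 0.98 (oligosaccharyl transferase), 0.69 (Golgi) and 0.72 (other pathway genes), with 10 members at least 2-fold higher and 0 lower. Raising dim values to background changed the sign of 2 members, Pmm1 and Mgat4a. Both lay at background on both arrays, so their new value of -0.19 is only the gap between the background levels. Of the 6 other pathway genes past 2-fold, 3 remained so after loess or quantile scaling, and Tsta3 passed 2-fold as lower there. With only the brightest probe set of each gene, Nanp (-1.17) and Uggt2 (-1.11) also passed 2-fold as lower. No paired analysis was possible because each group is 1 array, and no replicate could be left out.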
